A study of Macaca mulatta with 6 samples.

Results

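The tumor necrosis factor (TNF) ligands, their receptors, the adaptors and induced proteins named after them, and the NF-kB subunits and inhibitors were examined in bulk RNA sequencing data that the study describes as cultured spermatogonial stem cells (SSCs) of the rhesus monkey, while the sample labels give the tissue as testis. Members were chosen by name: symbols starting with TNFSF, TNFRSF, TNFAIP or TRAF followed by a digit, together with TNF, LTA, LTB, LTBR, FAS, FASLG, NGFR, CD40, CD70, NFKB1, NFKB2, REL, RELA, RELB, NFKBIA, NFKBIB, NFKBIE and NFKBIZ, and without TNFAIP6. This gave 59 of 17795 listed genes, and FASLG and NFKB2 were not analysed here because no row carried those symbols. The SSC PDGF+ group held 3 libraries whose cultures received human PDGF, the platelet-derived growth factor, and the SSC PDGF- group held 3 libraries from PDGF-free cultures. The culture methods describe droplets of a basement membrane extract under a StemPro-34 medium with serum, GDNF, PDGF, EGF, bFGF, LIF, Wnt3a, melatonin, vitamin C and putrescine, and do not say what the PDGF-free controls grew in. In each group the labels place replicate 1 in batch 1 and replicates 2 and 3 in batch 2. Donors, age and days of culture were not given for these libraries, nor was it stated whether the replicates were separate cultures, so p-values measure only the spread between these libraries.

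TNF family ligands are mostly trimeric proteins of the cell surface that can be shed, and each binds a small set of receptors. Receptors with a death domain can recruit caspase 8 through adaptors, other receptors bind TRAF proteins directly, and decoy receptors bind ligand without passing on the signal. Many of these receptors lead to the IkB kinases, which mark the IkB inhibitors for degradation and so release NF-kB dimers to the nucleus, where NFKBIA, TNFAIP3 and other feedback inhibitors are among the genes that NF-kB switches on.

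Library totals ran from 10593805 to 14102697 counts. Of the germ cell markers, DDX4 had 2 to 9 counts per library in SSC PDGF+ and 13 to 38 in SSC PDGF-, and DAZL at most 14, whereas ID4, a marker of undifferentiated spermatogonia, had 1725 to 1885 counts. The list they come from held 9 genes, 6 of them with a row. Its other genes were scarce, GFRA1 with at most 9 counts in a library, ZBTB16 with at most 5 and MAGEA4 with at most 1. The 6 stromal fibroblast genes summed to 13828 to 19039 CPM (counts scaled to library size with TMM factors) with PDGF and 16667 to 18782 without. Among them COL3A1 (-1.07, edgeR adjusted p = 4.2e-04) and PDGFRA (-0.56, 0.044) fell on the log2 scale, and COL1A1 (0.60, 0.245) did not pass. PDGFRA shared its counts in full with FIP1L1, so its fall may belong to either gene. That call was kept in 1 of 6 fits that leave out a library. The pan-leukocyte gene PTPRC was at 0 in all 6 libraries. The myeloid list to which it belongs summed to 17.4 to 19.8 CPM with PDGF and 12.5 to 20.7 CPM without, mostly from CD68 at 10.1 to 17.3 CPM, and 6 T or NK cell genes summed to at most 1.47 CPM, with 3 of them at 0 everywhere. Summed levels of 4 peritubular myoid cell genes were 176 to 186 CPM with PDGF and 630 to 653 CPM without. Of these genes ACTA2, DES and MYLK were called lower with PDGF. MYH11 was not, at 4.93 to 7.96 CPM with PDGF and 7.15 to 8.33 without (edgeR adjusted p = 0.60). Summed levels of 3 spermatid genes were 47.6 to 75.3 and 412 to 681 CPM, and those of 3 epithelial genes were 14.2 to 22.1 and 37.3 to 51.4 CPM. The part of these differences in the results below was not tested, and in bulk libraries fewer cells of a type and less RNA per cell cannot be told apart.

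Promoter windows are shown for the called genes NFKBIA, an inhibitor of NF-kB, and TNFSF11, a ligand, on which much of the following turns. Each covers the 250 bases before the annotated gene start in the RefSeq annotation of Mmul_10 and is written 5′ to 3′ on the gene's strand. Capitals mark matches, on either strand, to the kB motif, which was written as GGG, then any 3 bases, then TTCC. The windows are chr7:97479222-97479471 on the minus strand for NFKBIA and chr17:21145483-21145732 on the plus strand for TNFSF11.
NFKBIA: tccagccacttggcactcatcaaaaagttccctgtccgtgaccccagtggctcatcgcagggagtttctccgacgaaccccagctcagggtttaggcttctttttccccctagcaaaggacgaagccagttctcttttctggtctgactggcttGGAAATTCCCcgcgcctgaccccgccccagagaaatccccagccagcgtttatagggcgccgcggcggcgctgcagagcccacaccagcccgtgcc
TNFSF11: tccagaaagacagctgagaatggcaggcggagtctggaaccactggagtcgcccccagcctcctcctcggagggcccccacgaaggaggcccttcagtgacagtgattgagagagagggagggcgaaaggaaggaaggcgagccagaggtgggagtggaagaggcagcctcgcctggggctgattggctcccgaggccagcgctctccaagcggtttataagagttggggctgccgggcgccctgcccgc
NFKBIA held 1 match, GGAAATTCCC, whose first base lay 96 bases before the start. TNFSF11 held no match in this window. Over all 59 members, 11 windows (18.6%) held the kB motif, against 5.08% of 21102 windows of the same length in the annotation. The others of the 11 were those of the ligands LTB, TNFSF13 and TNFSF15, the receptors LTBR, TNFRSF9 and TNFRSF6B, and TRAF3, TNFAIP1, TNFAIP3 and RELB. The window of RELB, an NF-kB subunit, held 2 matches. The AP-1 motif TGANTCA, searched on both strands, was in 4 windows (6.78%) against 5.15%, namely those of TNFRSF10A, TNFRSF9, TNFRSF11A and TRAF3IP2. These matches describe letters in the reference sequence and are not binding sites measured here.

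With PDGF, the ligand gene TNFSF11 rose 17.9-fold, TNFRSF10A, TNFRSF10D and FAS rose less than 2-fold, and NFKBIA and TNFRSF25 fell. In all, 44 of the 59 members passed the filter on low counts, and 4 of these were called higher and 2 lower with PDGF by edgeR's quasi-likelihood test at a Benjamini-Hochberg adjusted p under 0.05 over the 11539 genes tested. The called share of members was 13.6%, against 18.3% of all genes tested (7.61% higher and 10.7% lower). FAS shared all its counts with STAMBPL1, which is not a member. TNFRSF10A and TNFRSF10D had the same counts in every library, and with 1 gene per set of identical counts 5 of 42 (11.9%) were called. The median log2 fold change of the 44 was -0.04, with 21 above 0 and 23 below, and that of all genes was 0.02. Most moved little, 29 by under 0.5 on the log2 scale, and the median size of change was 0.30 against 0.35 over all genes. The groups did not overlap for 14 members (31.8%), against 37.6% of all genes. Of these 14, 8 were higher with PDGF (18.2% of all genes) and 6 lower (19.3% of all genes).

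**Figure D1:**
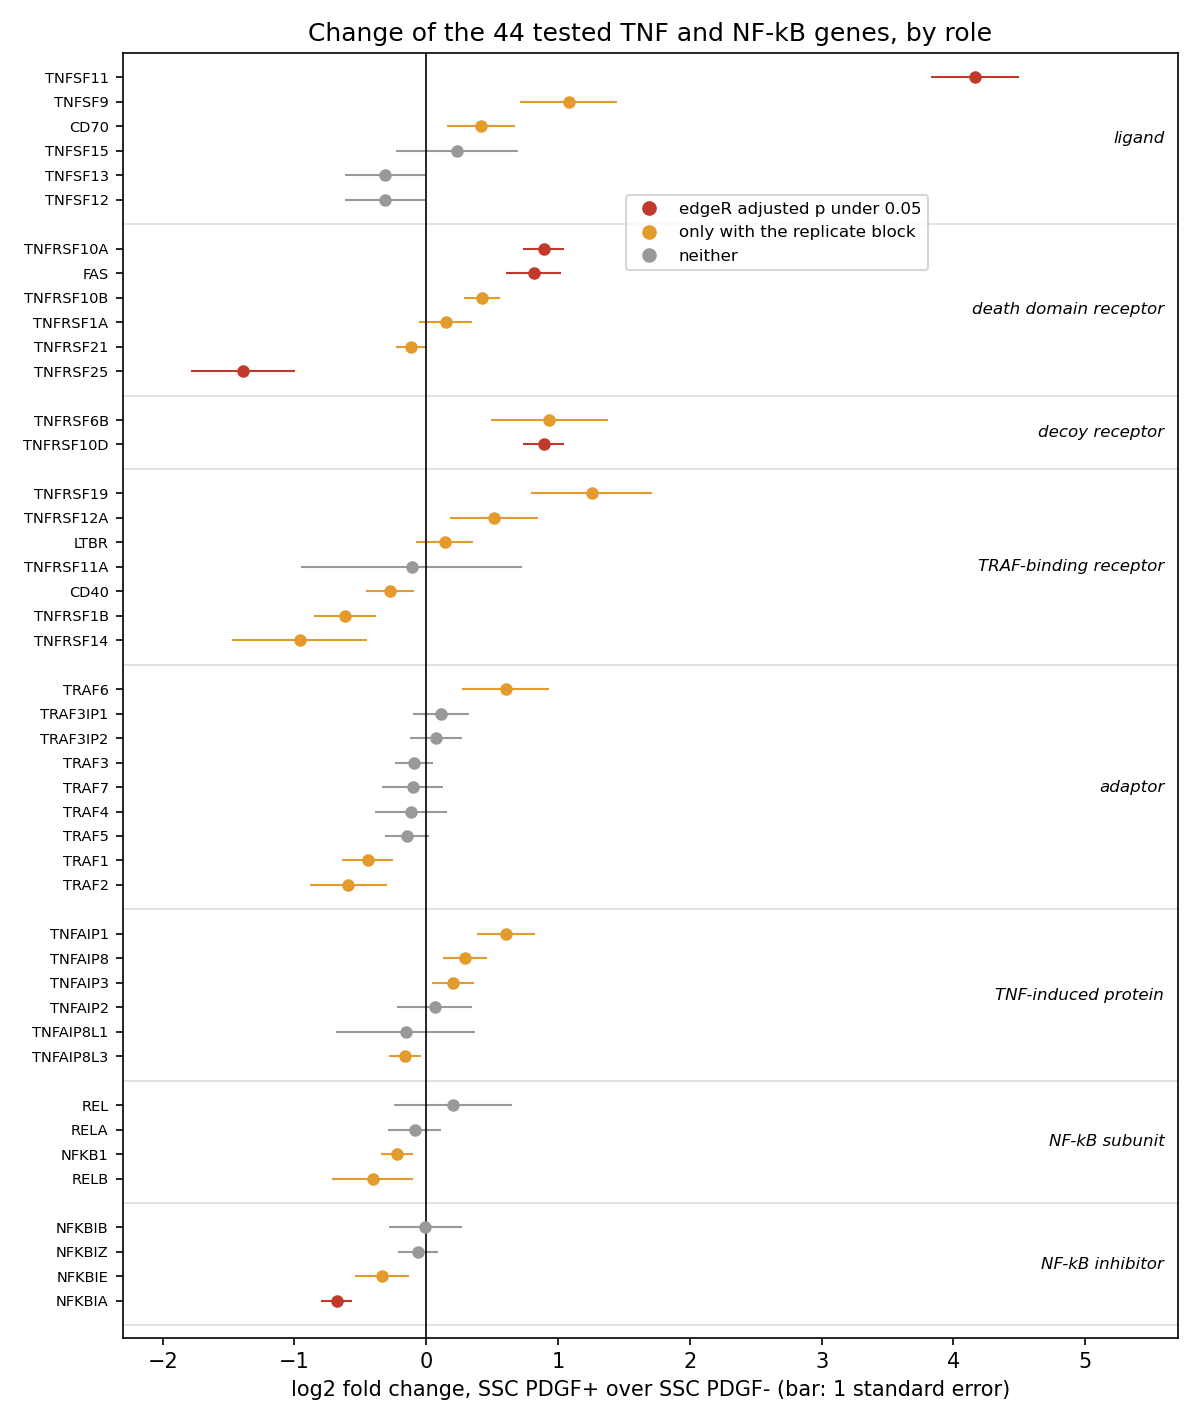
Log2 fold change of SSC PDGF+ over SSC PDGF- for the 44 tested genes, grouped by role, from edgeR with 3 libraries per group. Bars are 1 standard error and colour gives the call. TNFSF11 at 4.16 stands to the right of all others, and most genes lie within 0.5 of 0.

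The labels give replicates of the same number a shared batch, so the comparison was also fitted with a block for the replicate number. Replicates 2 and 3 share batch 2, so this block splits the libraries more finely than the batch does. Within batch 2, deviations from group means correlated as closely across numbers (0.36 and 0.39) as within them (0.35 and 0.37). A pairing by number there was therefore not shown. With the block, 16 members were higher and 12 lower (63.6%), while 60.1% of all genes were called (31.1% higher, 29% lower). With the block the members' share lay near that of all genes. When the block was joined by a GC content and gene length term, 18 members were higher and 5 lower, and over all genes 37.3% were higher and 21.5% lower. That term moved the median log2 fold change of all genes from 0.02 to 0.10. Of the 28 members called with the block, 9 no longer passed (CD40, NFKBIE, RELB, TNFAIP3, TNFAIP8, TNFAIP8L3, TNFRSF14, TNFRSF21 and TNFRSF25), and NFKBIB, RELA, TRAF4 and TRAF7 newly passed as higher. Replicate 1 was the lowest of the 3 libraries in both groups for 21 of the 44 members (47.7%, against 35.7% of all genes) and the highest in both for 9 (20.5% against 35.6%). The median GC content was 60.8% in the 21 and 46.2% in the 9. The direction within batch 1 was that within batch 2 for 37 of 44 members, with members of identical counts each counted. The share over all genes was not computed, so this count cannot be called particular to the members.

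**Figure D2:**
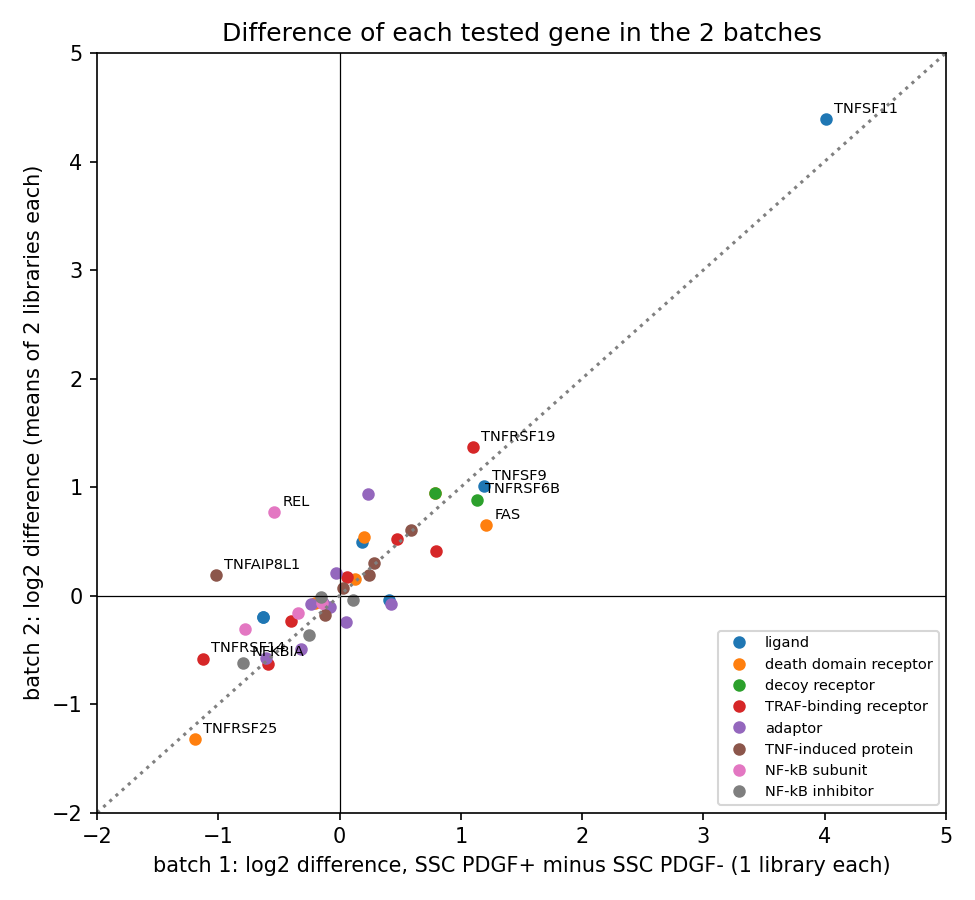
Log2 difference between SSC PDGF+ and SSC PDGF- within batch 1 (1 library each, x axis) and within batch 2 (means of 2 libraries each, y axis) for each tested gene, coloured by role, with a dotted line of equality. TNFSF11 lies at 4.01 and 4.39, and REL and TNFAIP8L1 are among the genes with opposite signs in the 2 batches.

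Among the ligands, TNFSF11, which encodes RANKL, the factor that drives osteoclast formation, was measured at 112, 88.0 and 81.7 CPM in SSC PDGF+ and at 6.90, 6.03 and 2.65 CPM in SSC PDGF-. Every library with PDGF lay far above every library without. The means were 93.8 ± 15.9 and 5.19 ± 2.25 CPM (SD, n = 3 each), a log2 fold change of 4.16 ± 0.33 (SE) with an edgeR adjusted p of 2.3e-04. The gene, at chr17:21145733-21180500 on the plus strand (Mmul_10), was higher with PDGF in both batches, by 4.01 and 4.39, and passed without any single library, with a log2 fold change of 3.86 to 4.42. Its signalling receptor TNFRSF11A (RANK) was scarce, at 0.608, 1.49 and 1.13 CPM with PDGF and 0.329, 2.87 and 0.294 CPM without. The 2 groups overlapped, the log2 fold change was -0.11 ± 0.84 and the edgeR adjusted p was 0.94. The soluble decoy for RANKL, TNFRSF11B (osteoprotegerin), had 3 counts with PDGF and 1 without, summed over the libraries of each group.

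TNFSF9, the ligand of the T cell costimulator 4-1BB, was at 7.56, 11.2 and 16.4 CPM with PDGF and 3.29, 6.51 and 6.86 CPM without. All libraries with PDGF were higher, but replicate 1 was the lowest in each group. The log2 fold change of 1.08 ± 0.37 had an edgeR adjusted p of 0.079 and passed with the replicate block (adjusted p = 5.8e-05). CD70, the ligand of CD27, read 10.7, 18.5 and 17.8 CPM with PDGF and 9.44, 12.5 and 13.2 CPM without, so the groups overlapped. The log2 fold change of CD70 was 0.42 ± 0.26, with an edgeR adjusted p of 0.295, or 0.024 with the block. TNFSF12 (TWEAK) and TNFSF13 (APRIL) are adjacent genes with identical counts, so their reads cannot be assigned, and both read 9.86 to 20.1 CPM with PDGF and 15.3 to 25.5 CPM without (log2 fold change -0.31 ± 0.30, adjusted p = 0.512). TNFSF15 stayed between 1.02 and 3.17 CPM in all libraries, with overlapping groups.

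TNF itself did not pass the filter. Its counts were 7, 6 and 8 in the SSC PDGF+ libraries and 0, 8 and 1 in the others, a sum of 21 against 9. Scaled for library size, the ratio was 1.87, and its 95% exact (Clopper-Pearson) interval, for counting error alone, ran from 0.822 to 4.64. LTB, a lymphotoxin subunit, was counted 0, 0 and 2 times in the SSC PDGF+ libraries and 5, 4 and 0 times in the others, so the groups overlapped. Its ratio was 5.61, higher without PDGF, with an interval for counting error alone of 1.16 to 53.4. LTA had 2 and 0, TNFSF8 13 and 7, TNFSF10 (TRAIL) 3 and 5, and TNFSF13B (BAFF) 7 and 10 counts. The intervals of TNFSF8 (0.552 to 4.41) and TNFSF13B (0.612 to 5.51) included no change. These intervals leave out the spread between libraries. As the groups overlapped in each of these low ligands, differences between groups were not resolved at this depth. Summed over the 10 ligands that do not share their counts, CPM per kb of exonic length was 67.9 to 70.1 in SSC PDGF+ and 16.8 to 21.9 in SSC PDGF-. Without TNFSF11 the other 9 summed to 18.8, 27.9 and 32.97 against 13.6, 19.2 and 19.2 CPM per kb, and the groups overlapped.

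**Figure D3:**
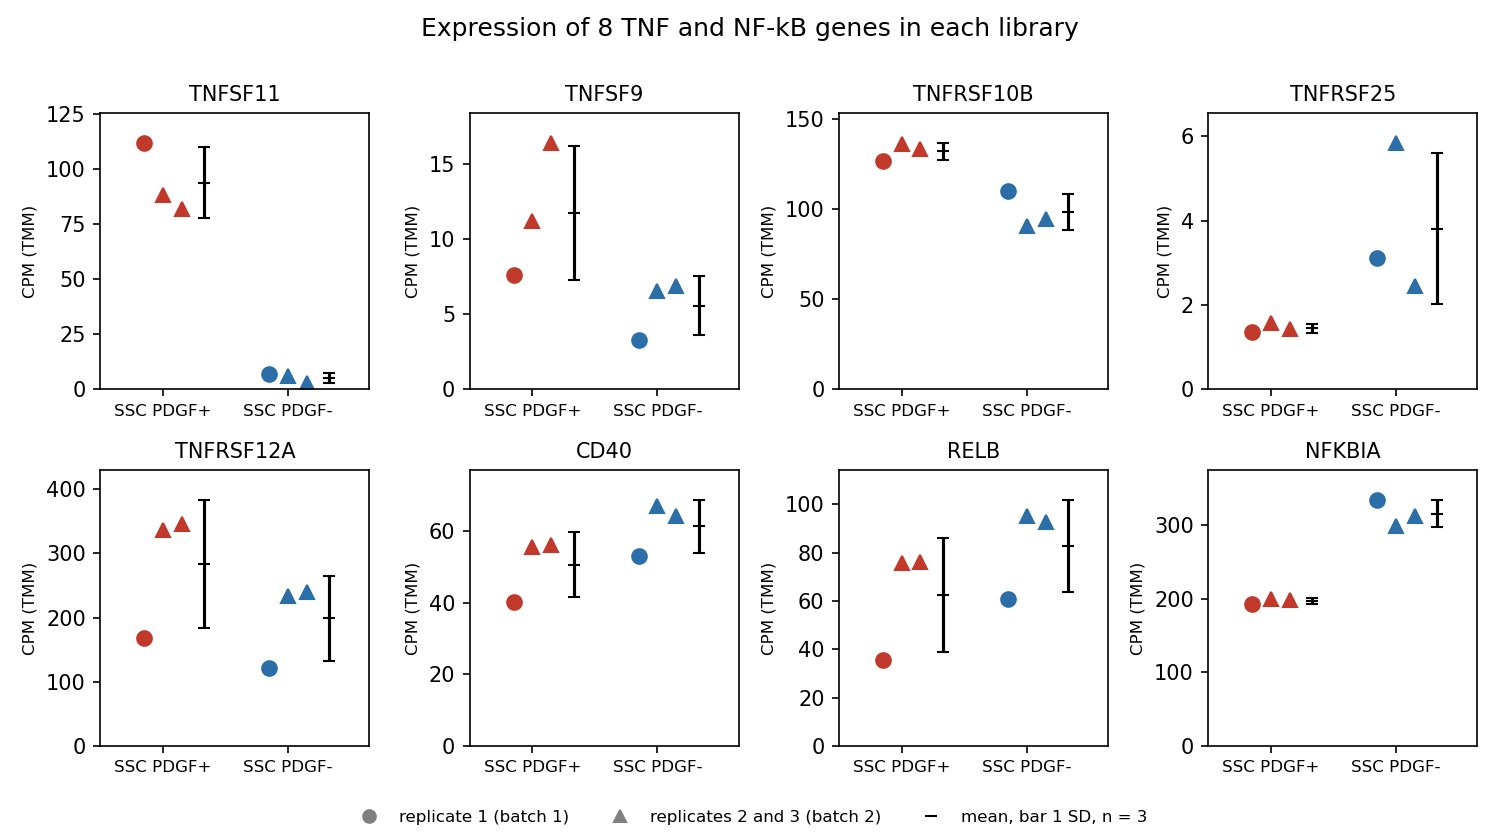
CPM (TMM-scaled) of 8 genes in each library, with circles for replicate 1 and triangles for replicates 2 and 3, beside the mean and SD of each group (n = 3). In TNFSF11, TNFSF9, TNFRSF10B, TNFRSF25 and NFKBIA the groups are apart, while in TNFRSF12A, CD40 and RELB replicate 1 lies below its group mates and the groups overlap.

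Of the 6 death domain receptors tested, edgeR called 2 higher and 1 lower with PDGF (50%, against 18.3% of all genes tested). Both genes called higher share their counts with another gene, so neither rise can be assigned. TNFRSF10A, a receptor for TRAIL, read 28.1, 30.3 and 28.8 CPM with PDGF and 16.3, 14.2 and 16.6 CPM without. The groups were clearly apart, and the log2 fold change was 0.89 ± 0.15 (means 29.1 ± 1.13 and 15.7 ± 1.30 CPM, SD, n = 3, edgeR adjusted p = 0.00625). This gene at chr8:23450474-23485616 shares its counts in full with TNFRSF10D, a decoy receptor for TRAIL at chr8:23398726-23427755, both on the minus strand, so the rise cannot be assigned to the signalling receptor or the decoy. The neighbouring TNFRSF10B, the other signalling TRAIL receptor, has counts of its own and was at 127, 136 and 133 CPM with PDGF and 110, 90.8 and 94.3 CPM without. Its groups did not overlap either, but the log2 fold change of 0.42 ± 0.14 had an edgeR adjusted p of 0.065, and 1.1e-05 with the replicate block.

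FAS, the receptor of FAS ligand, was at 25.1, 24.8 and 21.9 CPM with PDGF and at 10.8, 12.7 and 17.2 CPM without. Each library with PDGF was above each library without, with a log2 fold change of 0.82 ± 0.21 and an edgeR adjusted p of 0.030. This call was lost without SSC PDGF+ replicate 1, 2 or 3 (adjusted p = 0.052, 0.095 and 0.066) or without SSC PDGF- replicate 2 (0.109). FAS, at chr9:89258065-89283471 on the plus strand, also shared its counts in full with STAMBPL1, so the rise may belong to either gene. TNFRSF25 (DR3), the receptor of the ligand TL1A encoded by TNFSF15, was low throughout, at 1.35, 1.56 and 1.43 CPM with PDGF and 3.12, 5.84 and 2.45 CPM without. The SSC PDGF- libraries were all higher and also more spread, replicate 2 most of all. TNFRSF25, at chr1:218052108-218057449 on the plus strand, fell by 1.39 on the log2 scale (SE 0.40, edgeR adjusted p = 0.045). Its call was lost without any SSC PDGF+ library (adjusted p = 0.097, 0.11 and 0.125), without SSC PDGF- replicate 2 (log2 fold change -0.94, adjusted p = 0.149), and under the block with the GC and length correction (-0.84, adjusted p = 0.061).

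The remaining death domain receptors were abundant and moved little. TNFRSF1A, the main TNF receptor, read 159, 231 and 221 CPM with PDGF and 145, 196 and 210 CPM without. The groups overlapped (log2 fold change 0.15 ± 0.20, edgeR adjusted p = 0.645, with the block 0.019). TNFRSF21 (DR6) read 291, 287 and 290 CPM with PDGF and 335, 303 and 304 CPM without, a non-overlapping but small difference (log2 fold change -0.12 ± 0.12, adjusted p = 0.518, with the block 0.034). With the replicate block all 6 tested receptors of this kind were called, 4 higher and 2 lower, where 60.1% of all genes were. The 2 lower, TNFRSF21 and TNFRSF25, did not pass once the GC and length term was added (adjusted p = 0.32 and 0.061), and with replicates 2 and 3 summed the edgeR adjusted p of the 6 ran from 0.114 to 0.815. NGFR, which also carries a death domain, had 2 counts, both in an SSC PDGF+ library.

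The other tested decoy receptor, TNFRSF6B (DcR3), is a secreted protein that binds FAS ligand and TL1A. It was at 11.9, 27.8 and 27.7 CPM with PDGF and 5.42, 14.8 and 15.2 CPM without. Replicate 1 was the lowest of both groups, and within each batch the library or libraries with PDGF were higher, by 1.13 and 0.88 on the log2 scale. The log2 fold change was 0.93 ± 0.44 with an edgeR adjusted p of 0.184, and 2.9e-06 with the replicate block.

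Of the 7 TRAF-binding receptors tested, none was called by edgeR without the block, with 1 higher and 1 lower at an unadjusted p under 0.05 and 1 higher by DESeq2. With the block 3 were higher and 3 lower (85.7%, where 60.1% of all genes were called). TNFRSF12A (FN14), the receptor of TWEAK, was at 169, 337 and 346 CPM with PDGF and 122, 234 and 240 CPM without. The spread between replicate 1 and the other two was larger than the difference between groups, and the log2 fold change of 0.52 ± 0.33 had an edgeR adjusted p of 0.319, against 5.3e-09 with the block. LTBR, the lymphotoxin beta receptor, read 184 to 284 CPM with PDGF and 177 to 261 CPM without, largely the same range (log2 fold change 0.14 ± 0.22, adjusted p = 0.685, with the block 0.022). CD40, the costimulatory receptor of antigen presenting cells, read 40.1, 55.5 and 56.1 CPM with PDGF and 52.9, 66.9 and 64.2 CPM without. It was lower with PDGF in both batches but the groups overlapped (log2 fold change -0.28 ± 0.18, edgeR adjusted p = 0.328, with the block 0.0025), and its sign turned to 0.04 under the block with the GC and length correction.

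TNFRSF1B, the second TNF receptor, which lacks a death domain, read 8.78, 13.2 and 10.7 CPM with PDGF and 13.2, 16.8 and 20.3 CPM without. The log2 fold change was -0.62 ± 0.24 (edgeR adjusted p = 0.107, with the block 0.0015). TNFRSF14 (HVEM) read 2.09 to 3.98 CPM with PDGF and 2.39 to 10.2 CPM without, its highest value standing in a single SSC PDGF- library (log2 fold change -0.96 ± 0.51, adjusted p = 0.232, with the block 0.023, and -0.18 with adjusted p = 0.63 after the GC and length correction). TNFRSF19 (TROY) read 2.35 to 5.33 CPM with PDGF and 0.862 to 2.46 CPM without (log2 fold change 1.25 ± 0.46, adjusted p = 0.096, with the block 0.0027). The lymphocyte receptors of this class were near or at 0: TNFRSF17 had 7 counts in all and TNFRSF9 3, and TNFRSF8, TNFRSF13B and TNFRSF18 had none in any library.

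None of the 9 adaptors tested was called by edgeR, nor at an unadjusted p under 0.05 nor by DESeq2. TRAF proteins bind receptor tails and most act as ubiquitin ligases. TRAF4 read 69.7 to 127 CPM with PDGF and 82.2 to 139 CPM without, and TRAF7 read 105 to 162 and 111 to 176 CPM, with overlapping groups in both (log2 fold changes -0.11 ± 0.27 and -0.10 ± 0.23). TRAF2, the adaptor of both TNF receptors, read 19.6, 34.6 and 33.1 CPM with PDGF and 29.8, 56.8 and 44.9 CPM without. Within each batch it was lower with PDGF, with log2 differences of -0.61 and -0.58 (over all libraries -0.59 ± 0.29, edgeR adjusted p = 0.199, with the block 1.6e-05). TRAF1, itself an NF-kB target, read 11.0 to 13.2 CPM with PDGF and 13.7 to 19.0 CPM without, with no overlap (log2 fold change -0.44 ± 0.19, adjusted p = 0.152, with the block 0.012). TRAF6, which serves the interleukin 1 and Toll-like receptors, read 5.94 to 6.48 CPM with PDGF and 2.20 to 5.50 CPM without (0.60 ± 0.33, adjusted p = 0.24, with the block 0.040). TRAF3, TRAF5, TRAF3IP1 and TRAF3IP2 had log2 fold changes between -0.15 and 0.11. TRAF3IP3 was counted 2, 1 and 0 times with PDGF and 7, 4 and 0 times without it, with overlapping groups. Scaled for library size its ratio was 4.57, higher without PDGF, with an interval for counting error alone of 1.21 to 25.5.

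Of the 6 tested genes named as TNF-induced proteins, none was called by edgeR or DESeq2, with 1 higher at an unadjusted p under 0.05. TNFAIP3 (A20), a ubiquitin-editing enzyme that limits NF-kB signalling, read 60.0, 60.0 and 70.3 CPM with PDGF and 50.8, 49.9 and 64.8 CPM without. The groups overlapped (log2 fold change 0.20 ± 0.16, edgeR adjusted p = 0.422, with the block 0.018, and 0.087 after the GC and length correction). TNFAIP1, a substrate adaptor of a ubiquitin ligase, read 23.2, 34.3 and 31.5 CPM with PDGF and 15.4, 23.2 and 20.1 CPM without, with the lowest PDGF library just above the highest one without (log2 fold change 0.60 ± 0.22, adjusted p = 0.096, with the block 6.3e-05). TNFAIP8L3, a lipid transfer protein, was the most abundant per length of the group, at 219 to 248 CPM with PDGF and 248 to 270 CPM without (-0.16 ± 0.12, adjusted p = 0.396, with the block 0.0050, and -0.02 with 0.67 after the GC and length correction). TNFAIP8 shared its counts with HSD17B4 and FAM170A, so its 72.5 to 92.2 CPM with PDGF and 59.4 to 75.8 CPM without cannot be assigned (0.29 ± 0.17, adjusted p = 0.264, with the block 5.6e-04, and 0.092 after the GC and length correction). TNFAIP2 and TNFAIP8L1 had log2 fold changes of 0.06 and -0.16, and TNFAIP8L2 had no counts.

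None of the 4 NF-kB subunits tested was called by edgeR, at an unadjusted p under 0.05 or by DESeq2. RELA, the main activating subunit, read 86.9, 128 and 124 CPM with PDGF and 96.3, 136 and 128 CPM without. The ranges nearly coincided (log2 fold change -0.09 ± 0.20, edgeR adjusted p = 0.797). NFKB1, the precursor of its partner p50, read 130, 137 and 136 CPM with PDGF and 165, 148 and 158 CPM without. These groups did not overlap, but the difference was small (log2 fold change -0.22 ± 0.12, edgeR adjusted p = 0.245, with the block 0.0019). RELB, the subunit of the alternative pathway, read 35.4, 75.7 and 76.3 CPM with PDGF and 60.9, 94.9 and 92.7 CPM without. It was lower with PDGF in both batches, with log2 differences of -0.78 and -0.30, while the groups overlapped (-0.41 ± 0.31, edgeR adjusted p = 0.393, with the block 6.4e-05, and -0.02 under the block with the GC and length correction). REL stayed at 0.671 to 1.97 CPM.

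Of the 4 tested genes named as NF-kB inhibitors, NFKBIA fell. NFKBIA encodes IkB alpha, the inhibitor that NF-kB itself induces, and it read 193, 199 and 199 CPM with PDGF and 334, 298 and 313 CPM without. The SSC PDGF+ libraries were tightly grouped and all lay well below the others. The means were 197 ± 3.68 and 315 ± 18.2 CPM (SD, n = 3 each), and the gene, at chr7:97475994-97479221 on the minus strand, fell by 0.68 on the log2 scale (SE 0.12, edgeR adjusted p = 0.0063), or 1.6-fold. The difference within the batches was -0.80 and -0.62, and the gene passed without any single library. When replicates 2 and 3 were summed, the adjusted p was 0.138, and under the block with the GC and length correction the log2 fold change was -0.32 (adjusted p = 5.1e-06).
NFKBIE read 50.2 to 68.4 CPM with PDGF and 59.7 to 92.8 CPM without (-0.34 ± 0.21, edgeR adjusted p = 0.291, with the block 3.0e-04 and 0.00 after the GC and length correction). NFKBIB read 29.3 to 48.1 and 27.2 to 48.6 CPM, with a log2 fold change of -0.01 ± 0.28. NFKBIZ, which shares its counts with NXPE3, read 44.2 to 47.7 and 41.4 to 53.1 CPM (-0.06 ± 0.15).

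Compared per kb of exonic length, a scale on which genes can be set side by side, TNFRSF12A had the highest mean level over the 6 libraries (215 CPM per kb, range 109 to 309). NFKBIA followed at 168 (126 to 219), and these 2 ranges overlapped. In SSC PDGF- alone NFKBIA read 219, 196 and 205 CPM per kb and TNFRSF12A read 109, 209 and 214. There NFKBIA was the higher gene in replicate 1 only. TNFAIP8L3 (103), LTBR (92.1), TNFRSF1A (86.1) and TNFRSF21 (82.4) came next. Their ranges overlapped except that TNFAIP8L3 (92.8 to 114) lay above TNFRSF21 (78.4 to 91.5) throughout. TRAF4 (53.1), TRAF7 (47.7) and RELA (43.0) followed with overlapping ranges. CD40, NFKBIB, RELB, NFKB1, NFKBIE and TNFRSF10B lay between 27.0 and 34.7 CPM per kb. The order depends on the length used. Per kb of coding length TNFRSF12A (500) still led, but TNFAIP8L3 (278) stood above NFKBIA (269). On that scale TNFRSF10B (86.3) stood above TRAF4 (78.3), TRAF7 (73.0) and RELA (71.4). As a ratio of highest to lowest library, TNFSF11 had the widest spread of the genes plotted, from 1.20 CPM per kb in an SSC PDGF- library to 50.9 in an SSC PDGF+ library. The ligands TNF, LTA and LTB were at or under 0.450 CPM per kb in every library.

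**Figure D4:**
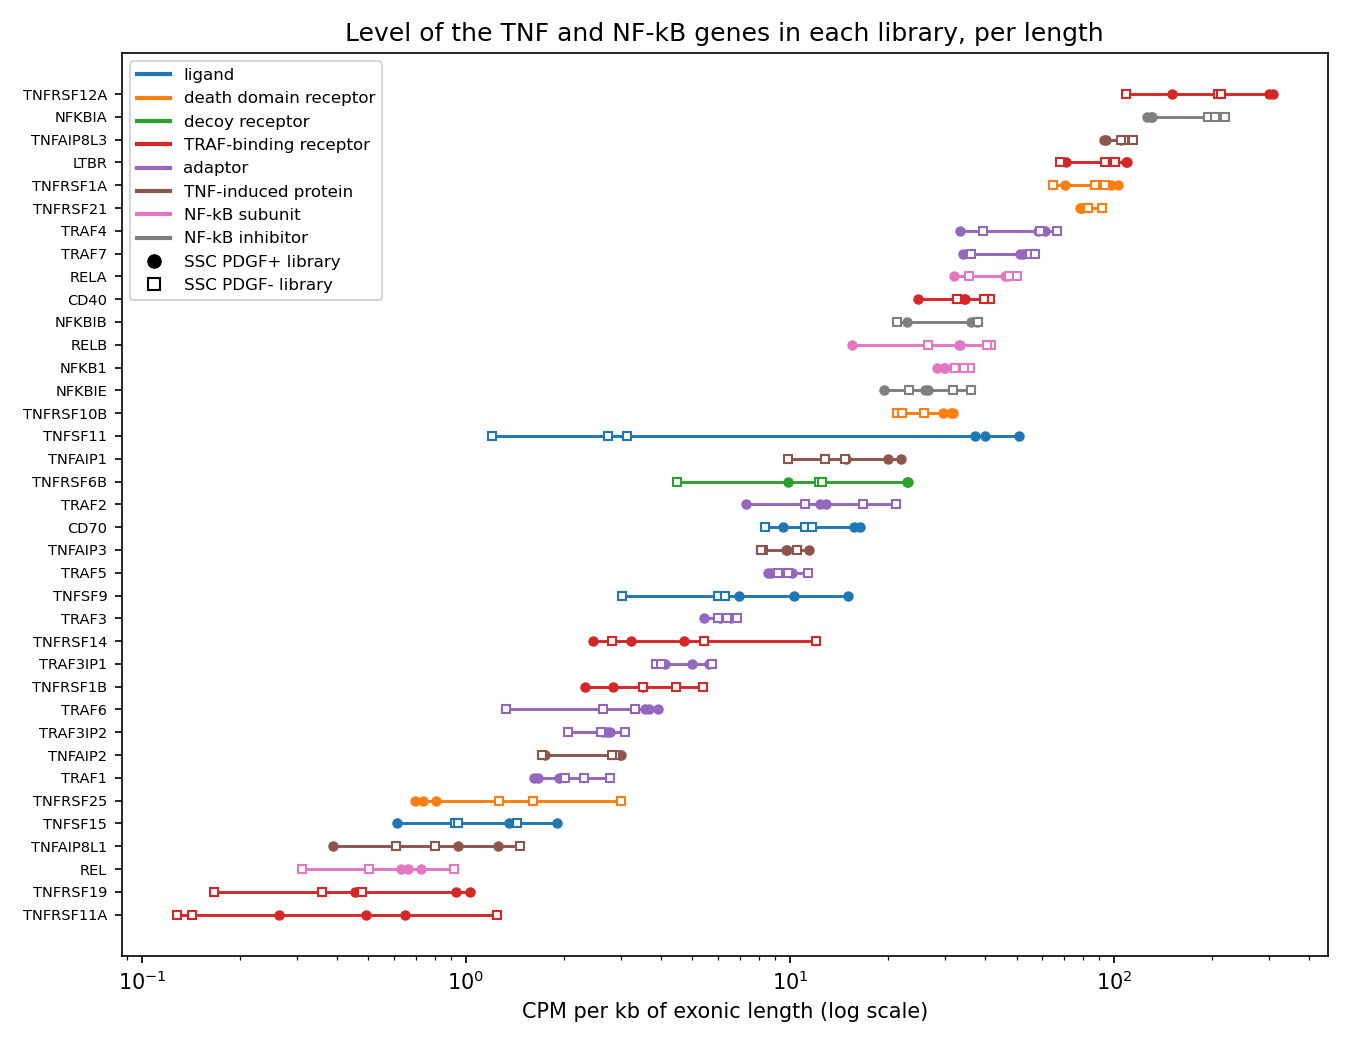
CPM per kb of exonic length (log scale) of the 37 tested genes whose counts are not shared with another gene, in order of their mean level, with filled circles for SSC PDGF+ and open squares for SSC PDGF- libraries and lines over the range. TNFRSF12A and NFKBIA lead by mean level, and TNFSF11 has the widest range on this log scale.

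A list of 48 other genes that carry or regulate the signal of these receptors had 43 rows, of which 41 were tested. By edgeR 3 were called higher with PDGF and 0 lower (7.32%, against 18.3% of all genes tested, 7.61% higher and 10.7% lower), with 7 higher and 0 lower at an unadjusted p under 0.05 and 6 higher and 0 lower by DESeq2. XIAP, an inhibitor of caspases, read 6.41, 4.69 and 4.36 CPM with PDGF and 2.46, 2.30 and 1.86 CPM without. CASP8, the caspase that death receptors activate, read 30.9, 28.6 and 28.4 CPM with PDGF and 17.9, 17.5 and 16.9 CPM without. Neither gene's groups overlapped, with log2 fold changes of 1.22 ± 0.29 and 0.75 ± 0.15 (edgeR adjusted p = 0.022 and 0.011). RIPK3, the kinase of necroptosis, was 1.16 ± 0.25 higher on the log2 scale (adjusted p = 0.016), but it shares its counts with ADCY4. Leaving out 1 library at a time, XIAP kept its call in 2 of 6 fits, RIPK3 in 3 and CASP8 in 5.

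The kinases that act on the IkB proteins were not called. Log2 fold changes were 0.39 ± 0.20 for CHUK (IKK alpha), -0.11 ± 0.12 for IKBKB (IKK beta), -0.30 ± 0.27 for the scaffold IKBKG (NEMO) and -0.41 ± 0.24 for MAP3K14 (NIK), with edgeR adjusted p of 0.215, 0.555, 0.468 and 0.283. CHUK and IKBKG passed with the replicate block, in opposite directions (adjusted p = 9.0e-05 and 3.2e-04). After the GC and length correction they were at 0.19 (adjusted p = 0.031) and -0.10 (0.19). RIPK1, the kinase bound by TNFRSF1A complexes, was 0.37 ± 0.14 higher with PDGF without passing (adjusted p = 0.099, with the block 4.3e-04). TRADD and FADD were not analysed here, as no row carried those symbols.

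Genes widely described as NF-kB targets formed a second list of 50, of which 29 of 35 with a row were tested. With PDGF 8 were called higher and 4 lower (41.4%, against 18.3% of all genes tested), and the median log2 fold change was 0.16. This list was written with earlier results of these data known. It is therefore no independent evidence of a direction or of a raised share of calls. The chemokine CCL7 read 59.3, 41.3 and 43.3 CPM with PDGF and 4.11, 2.39 and 2.16 CPM without. The cytokine LIF read 114, 138 and 147 against 8.54, 10.9 and 12.8 CPM, and PTGS2 (cyclooxygenase) 61.2, 42.7 and 41.1 against 8.29, 5.27 and 4.70 CPM. In all 3 genes the groups lay several-fold apart, with log2 fold changes of 4.04 ± 0.29, 3.63 ± 0.21 and 2.98 ± 0.28 (edgeR adjusted p = 1.5e-04, 5.7e-05 and 4.1e-04). BCL2A1, a survival factor, was also higher (2.95 ± 0.66, adjusted p = 0.018) but low, at 1.5 to 2.42 CPM with PDGF and 0 to 0.383 CPM without.

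Among the targets that fell with PDGF, the adhesion molecule ICAM1 read 4.66, 5.0 and 5.03 CPM with PDGF and 10.6, 13.1 and 11.1 CPM without. GADD45B, a stress response gene, read 17.0, 17.5 and 17.1 against 34.2, 34.0 and 33.6 CPM. Both were lower in every library with PDGF, and they fell by 1.24 (SE 0.20) and 0.98 (SE 0.14) on the log2 scale with edgeR adjusted p of 0.0045 and 0.0031. Under the block with the GC and length correction the log2 fold changes were -0.74 and -0.35 (adjusted p = 0.0029 and 0.0074). TLR2, a receptor for bacterial lipoproteins, fell by 1.37 (SE 0.35, adjusted p = 0.029), a call kept in 1 of 6 fits that leave out a library. The complement gene CFB fell by 1.04 (SE 0.21, adjusted p = 0.012), although its counts are those of C2 as well.

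**Figure D5:**
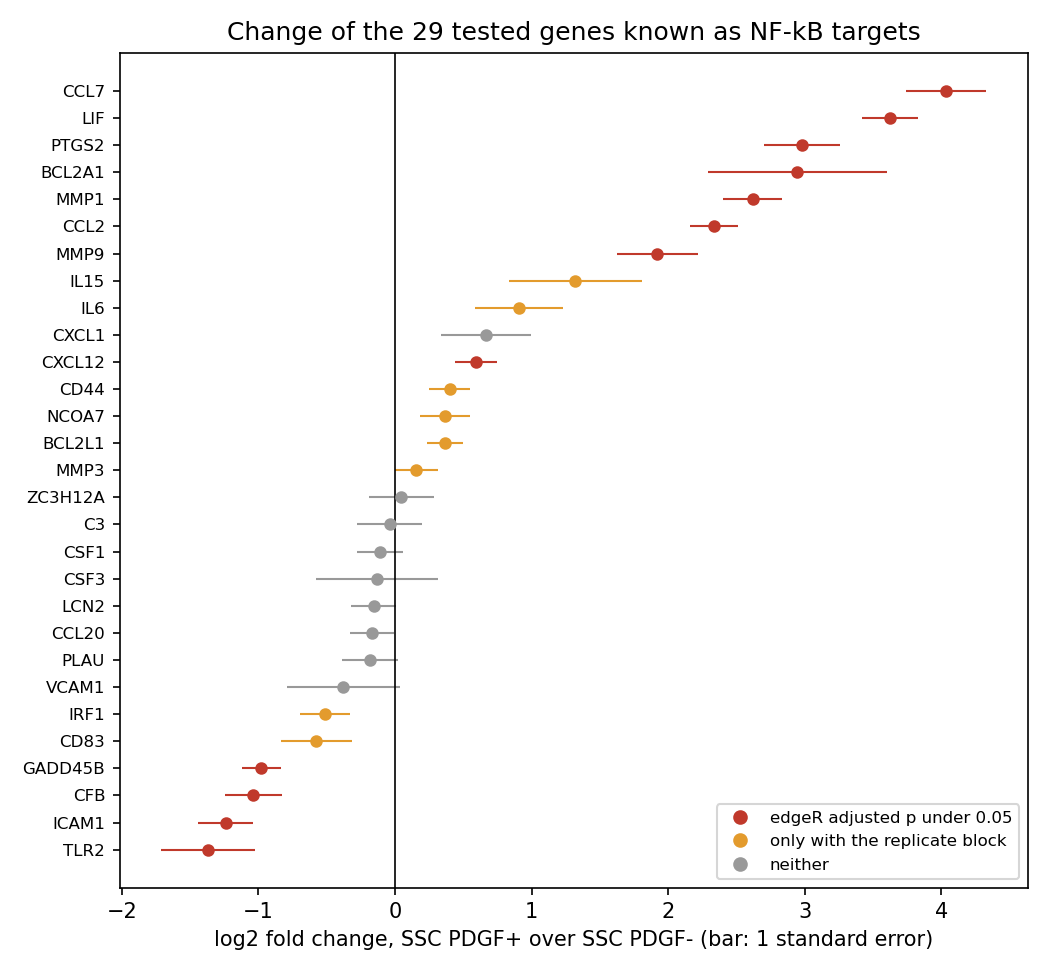
Log2 fold change of SSC PDGF+ over SSC PDGF- for the 29 tested genes of the NF-kB target list, from edgeR with 3 libraries per group. Bars are 1 standard error and colour gives the call, with 8 genes called higher and 4 called lower.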

How the data were processed

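Bulk RNA sequencing counts of 3 SSC PDGF+ and 3 SSC PDGF- libraries were used. The authors deposited expected counts per gene, without normalization. The submitters' processing notes name fastp, HISAT2 2.1.0, SAMtools and featureCounts 2.0.1 and the builds Mmul_10 and Mmul_8.0.1, without their roles. In the file 34 values of 13 genes, none of them a member, were not whole, so values were rounded. Gene positions, lengths and upstream windows came from the RefSeq annotation of Mmul_10, which holds 17021 of the 17795 names used here with a position. Members and lists were chosen with earlier results of these data known.

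Counts were TMM-scaled and tested in edgeR 4.0.16 (R 4.3.3) with filterByExpr and the quasi-likelihood test without a block, Benjamini-Hochberg adjusted over 11539 genes. SE was taken as the log2 fold change over the root of F, without sign. Within-batch differences used 0.5 added counts. Intervals cover counting error only. Same-numbered libraries share a batch by the labels, and their deviations from group means correlated at r = 0.73, 0.35 and 0.37, so a block for the replicate number was tried as an alternative. Across numbers, the libraries of batch 2 correlated as well (0.36 and 0.39). Other alternatives were other scalings and filters, DESeq2 1.42.0, batch as a term, batch 2 alone, replicates 2 and 3 summed, the block with GC content and length, stricter thresholds and each library left out. The main edgeR fit and DESeq2 were tested on simulated counts that held no batch or GC effect. The other alternatives were not tested in this way. Named were every member, with full values for called members and up to 3 of highest level per length in each role, and of each list the largest called changes (up to 4 per direction), with IKBKB, CHUK, IKBKG, MAP3K14, RIPK1, TRADD, FADD and CASP8. Genes with identical counts were searched for among genes of 20 or more counts. Figures were drawn with matplotlib 3.10.9.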

Additional observations from a re-analysis of the deposited data

How the results depend on the processing

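Counts of calls depended above all on how the batches were treated. In the order members higher, members lower, pathway list higher, pathway list lower, target list higher and target list lower, the reported counts were 4, 2, 3, 0, 8 and 4. With the replicate block they were 16, 12, 15, 8, 14 and 6, with batch as a term 16, 14, 15, 8, 14 and 6, with the block and the GC and length correction 18, 5, 17, 6, 17 and 5, and in batch 2 alone 14, 10, 13, 8, 13 and 4. With replicates 2 and 3 summed they were 1, 0, 0, 0, 7 and 0, while at an unadjusted p under 0.05 that fit gave 6, 3, 5, 0, 9 and 4. DESeq2 gave 7, 2, 6, 0, 8 and 4. At an adjusted p under 0.01 they were 3, 1, 0, 0, 6 and 2, and 1 member was higher and 1 lower with an absolute log2 fold change of at least 1. Leaving out each library gave 3 to 6, 1 to 4, 1 to 5, 0 to 1, 6 to 9 and 2 to 4. The count of members lower was 1 without SSC PDGF+ replicate 1, 2 or 3 or SSC PDGF- replicate 2 and 4 without SSC PDGF- replicate 1. The pathway list had 1 higher without SSC PDGF+ replicate 2 or SSC PDGF- replicate 3 and 5 without SSC PDGF- replicate 1, and the target list had 2 lower without SSC PDGF+ replicate 2 or SSC PDGF- replicate 3. The causes were not tested.

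The median log2 fold change of members, -0.04, was 0.23 under the block with the GC and length correction and -0.11 to 0.11 without single libraries. Under that correction the signs of CD40 (0.041), TRAF4 (0.26), TRAF7 (0.18), RELA (0.20), NFKBIE (0.0044) and NFKBIB (0.64) turned. NFKBIB, at -0.01, was also above 0 with no scaling factors (0.0093), no filter (0.022), the block (0.0031), batch as a term (0.0032) and replicates 2 and 3 summed (0.028). Without single libraries the log2 fold change ran from -0.0099 to 0.31 for TNFRSF1A, -0.022 to 0.33 for LTBR, -0.32 to 0.13 for TRAF4, -0.30 to 0.085 for TRAF7, -0.23 to 0.082 for RELA and -0.25 to 0.20 for NFKBIB. RLE, upper quartile and no scaling factors left the called direction of TNFSF11, NFKBIA, FAS, TNFRSF10A, TNFRSF10D and TNFRSF25 as reported. With replicates 2 and 3 summed, TNFSF11 kept its call (adjusted p = 0.0062). Low counts limit the 15 members that did not pass the filter, of which 4 had no count and none exceeded 8 counts in a library.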
